A study of Mus musculus with 9 samples.

Results

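The vacuolar proton pump, or V-ATPase, was examined subunit by subunit in bone marrow neutrophils of young mice. Its 10 subunit genes considered here (Atp6v1a, Atp6v1b2, Atp6v1d, Atp6v1e1, Atp6v1f, Atp6v1h, Atp6v0b, Atp6v0c, Atp6v0d1 and Atp6v0e) were taken from the deposited table by gene symbol, and all 10 were among its 7197 listed genes. The data comprised 5 Rragc+/+ and 4 RragcS74N/+ libraries, all from animals aged 2 months. RragcS74N/+ mice carry 1 germline allele of Rragc edited to encode an active form of RagC, so every cell type of the animal carries it, and Rragc+/+ mice carry none. Neutrophils were sorted as CD45+ CD11b+ Ly6G+ cells, and 3′-end sequencing counted their polyadenylated transcripts. The question addressed was whether activation of the Rag GTPase pathway in the animal changed pump subunit mRNA in these cells.

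The V-ATPase is a rotary motor of lysosomes, endosomes and secretory granules. Its cytosolic V1 sector hydrolyzes ATP, and the rotation is passed to the membrane-embedded V0 sector, which moves protons into the lumen. The same pump contacts the Ragulator and Rag GTPases on the lysosomal surface, where amino acid sufficiency is signaled to mTORC1. When mTORC1 is active it holds the transcription factor TFEB in the cytosol, and TFEB otherwise binds E-box elements at promoters of lysosomal genes, many V-ATPase subunits among them. In neutrophils the pump acidifies lysosomes and granules and takes part in controlling the pH of phagosomes.

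Promoter sequence was examined first, because an E-box is the element through which TFEB acts. RefSeq windows on assembly GRCm38.p6, from 250 bases before to 50 bases after an annotated start site, were found for 8 of the 10 subunits. No window was found for Atp6v1b2 or Atp6v1h. The E-box CACGTG, which reads the same on both strands, was present in 4 of these 8 genes, against 680 of 5684 listed genes with a window (11.96%) and 7.15% of all 32851 windows. In each of the 4 it was preceded by T, so that TCACGTG, searched on both strands and overlapping the E-box, was found in the same 4 genes, against 7.69% of listed genes with a window. The stretches from 150 bases before to 20 bases after the start site of these 4 genes are shown on the coding strand, with CACGTG in capitals, to place the element. The Atp6v0b stretch is chr4:117887310-117887479 (minus strand), that of Atp6v0d1 is chr8:105566045-105566214 (minus strand), that of Atp6v0e is chr17:26676246-26676415 (plus strand) and that of Atp6v1a is chr16:44139240-44139409 (minus strand).
Atp6v0b: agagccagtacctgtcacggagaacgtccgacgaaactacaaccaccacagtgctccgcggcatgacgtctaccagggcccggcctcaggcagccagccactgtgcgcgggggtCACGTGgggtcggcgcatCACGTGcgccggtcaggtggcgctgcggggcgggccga
Atp6v0d1: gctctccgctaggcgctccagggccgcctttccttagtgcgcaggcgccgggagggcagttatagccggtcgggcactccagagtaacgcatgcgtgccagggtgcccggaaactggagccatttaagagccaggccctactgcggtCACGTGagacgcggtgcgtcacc
Atp6v0e: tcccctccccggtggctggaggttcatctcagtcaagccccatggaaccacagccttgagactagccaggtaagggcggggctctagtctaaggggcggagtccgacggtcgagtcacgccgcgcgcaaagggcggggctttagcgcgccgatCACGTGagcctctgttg
Atp6v1a: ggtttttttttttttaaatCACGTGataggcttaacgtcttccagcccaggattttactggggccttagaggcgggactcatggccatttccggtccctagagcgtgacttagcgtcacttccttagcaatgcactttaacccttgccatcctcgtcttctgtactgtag

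Atp6v0b held the E-box at 2 places, starting at -36 and -18 relative to the start site. In Atp6v0d1 it started at -3, in Atp6v0e at 4 within the transcript, and in Atp6v1a farther upstream, at -131. The windows of Atp6v0c, Atp6v1d, Atp6v1e1 and Atp6v1f held no CACGTG, and neither did those of the 4 other listed pump subunits that had a window (Atp6v0a1, Tcirg1, Atp6ap1 and Atp6ap2). A match is a description of the sequence and does not show binding. The subunits considered here were chosen as typical TFEB targets, so their share with an E-box is not an independent finding.

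The libraries held between 1214295 and 1973957 reads over the listed genes, and each subunit was measured with between 26 reads (the lowest count of Atp6v1h) and 1615 reads (the highest of Atp6v0c) in a library. Rragc itself measured 71.0 ± 10.3 normalized counts (SD, n = 5) in Rragc+/+, against 65.8 ± 9.52 (SD, n = 4) in RragcS74N/+, and the edit changes the coding sequence, so this level does not check the genotype. The sorting markers Ly6g, Itgam and Ptprc were listed in every library, the lowest value being 903 normalized counts of Itgam, and the genes of primary granules that mark early neutrophils (Elane, Mpo, Prtn3 and Ctsg) were not listed. Per the study's text the neutrophils came from several mice of each genotype, but it describes more RragcS74N/+ mice than there are libraries here, and the labels do not tie a library to an animal. The p-values therefore measure the spread between these libraries. Across all 6673 genes tested with limma, 0 (0%) had an adjusted p-value under 0.05, the smallest adjusted p-value was 0.713, and 388 (5.81%) had an unadjusted p-value under 0.05. On reads recovered from the table, edgeR and DESeq2 each also called 0 genes after adjustment, with 460 and 447 genes at an unadjusted p-value under 0.05. The median log2 difference over all genes tested was 0.02.

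None of the 10 subunits differed between genotypes after adjustment (limma, adjusted p from 0.713 to 0.989), and none had an unadjusted p-value under 0.05. The fitted level was lower in RragcS74N/+ for 6 subunits and higher for 4, against 46.6% of all tested genes that were lower, and the median log2 difference of the 10 was -0.03. With edgeR or DESeq2 on the recovered reads 5 subunits were lower, as Atp6v1a, whose difference is close to 0, changed sign. The 4 V0 subunits had a median log2 difference of -0.36, with Atp6v0b, Atp6v0c and Atp6v0d1 lower, whereas the 6 V1 subunits had a median of 0.05 and were divided between 3 lower and 3 higher values. A library-wide trend with the GC content of transcript 3′ ends is described further on. With it removed, the sector medians were -0.13 (V0) and 0.06 (V1). A difference between the sectors was not tested. Leaving out Rragc+/+ replicate 5 raised the count of subunits at an unadjusted p-value under 0.05 more than leaving out any other library. Without replicate 5, 4 subunits (Atp6v0b, Atp6v0c, Atp6v0d1 and Atp6v1h) had an unadjusted p-value under 0.05, as did 907 of the 6629 genes then tested (13.7%). After adjustment 0 subunits passed.

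**Figure D1:**
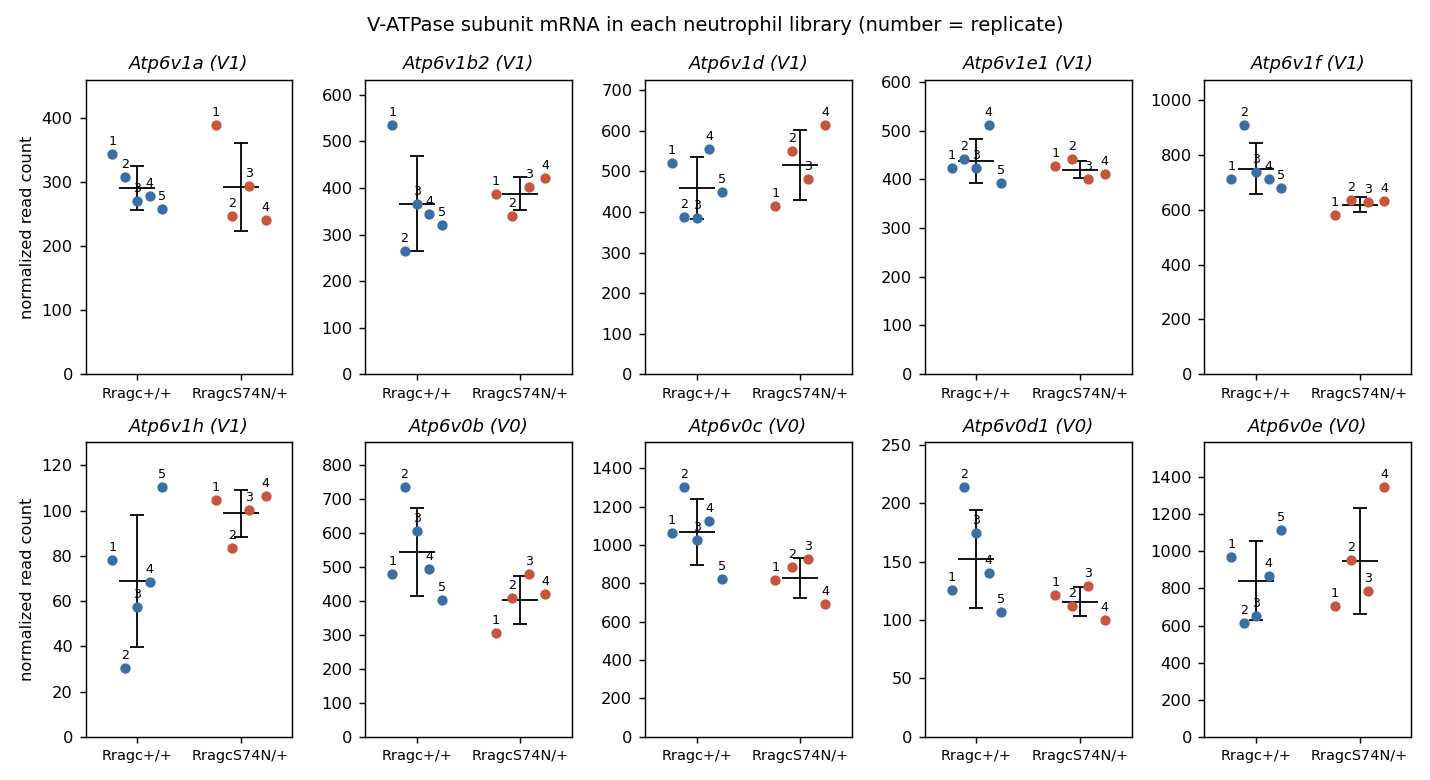
Normalized read counts (vertical axes, each starting at 0) of the 10 subunits in the 5 Rragc+/+ and 4 RragcS74N/+ libraries. Each point is a library with its replicate number, and the bar and whiskers are the mean and SD of a genotype. The RragcS74N/+ points lie below all Rragc+/+ points for Atp6v1f alone, and Rragc+/+ replicate 2 is the highest point for Atp6v0b, Atp6v0c, Atp6v0d1 and Atp6v1f and the lowest for Atp6v0e, Atp6v1b2 and Atp6v1h.

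By normalized count the order of the levels was Atp6v0c, Atp6v0e, Atp6v1f, Atp6v1d, Atp6v0b, Atp6v1e1, Atp6v1b2, Atp6v1a, Atp6v0d1 and Atp6v1h. The means over the 9 libraries ran from 962 ± 186 (SD) normalized counts for Atp6v0c, above 97.3% of listed genes, to 82.2 ± 26.8 (SD) for Atp6v1h, above 64.5% of them. Among neighbors in this order, Atp6v1f was above Atp6v1d and Atp6v1a was above Atp6v0d1 in all 9 libraries. The other 7 neighboring pairs exchanged places in at least 2 libraries and so were not separated beyond their spread. A 3′-end library gives about 1 tag per transcript whatever its length, but the order was also taken per kilobase of transcript. On that scale Atp6v0c remained first and Atp6v1h last, Atp6v1f moved up to the second place, and Atp6v1d, which has the longest transcript of the 10, moved down to the eighth.

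The V1 sector carries the catalytic head. Atp6v1a encodes subunit A, which binds and hydrolyzes ATP. It measured 344, 307, 269.9, 278 and 258 normalized counts in Rragc+/+ replicates 1 to 5 and 389.9, 247, 294 and 240.4 in RragcS74N/+ replicates 1 to 4. RragcS74N/+ libraries were both the highest and the 2 lowest of the 9, and the genotype means were nearly equal, at 291 ± 34.5 (SD, n = 5) and 293 ± 69.0 (SD, n = 4). The log2 difference was -0.01 with a 95% interval from -0.40 to 0.37 (limma, adjusted p = 0.989).

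Atp6v1b2 encodes subunit B2, the partner of A in the head. Its values were 536, 265, 366, 343 and 321 normalized counts in Rragc+/+ and 388, 339.6, 401 and 422 in RragcS74N/+. The Rragc+/+ range enclosed all 4 RragcS74N/+ values, with Rragc+/+ replicate 1 the highest library and replicate 2 the lowest. The log2 difference of 0.12 (95% interval -0.30 to 0.54) was smaller than the spread between replicates (limma, adjusted p = 0.86), and it was 0.01 when Rragc+/+ replicate 2 was left out.

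Atp6v1d and Atp6v1f encode subunits D and F, which form the central shaft that turns inside the head. Atp6v1d measured 520.3, 387, 384, 555 and 450.2 normalized counts in Rragc+/+ and 415, 550.0, 481 and 616 in RragcS74N/+. The ranges overlapped, although RragcS74N/+ replicate 4 was above every other library. The log2 difference was 0.17 ± 0.18 (SE; limma, adjusted p = 0.78), and 0.08 without that library.

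Atp6v1f was the subunit whose genotypes did not overlap. It measured 711, 911, 739.5, 713 and 679.8 normalized counts in Rragc+/+, or 751 ± 92.1 (SD, n = 5). The RragcS74N/+ libraries held 580.2, 634, 630.4 and 632, or 619 ± 26.1 (SD, n = 4), each below the lowest Rragc+/+ library. Such complete separation with lower values in RragcS74N/+ was found for 68 of the 6673 genes tested (1.02%). The log2 difference of -0.27 ± 0.15 (SE) did not pass the test (limma, adjusted p = 0.713). The gap between genotypes, from 634 to 679.8, was narrow beside the range within Rragc+/+, and it closed when the libraries were rescaled to the same total. The highest Rragc+/+ value was that of replicate 2, without which the log2 difference was -0.20 and the genotypes still did not overlap. Without Rragc+/+ replicate 5, Atp6v0b, Atp6v0c and Atp6v1h joined Atp6v1f, and 4 subunits did not overlap, beside 419 of the 6629 genes then tested (6.32%, in either direction).

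Atp6v1e1 encodes subunit E1 of the peripheral stalks, which hold the head still against the turning shaft. It was the steadiest subunit, with 422, 442, 423, 512 and 392 normalized counts in Rragc+/+ and 426, 441, 401 and 411 in RragcS74N/+. All RragcS74N/+ values lay within the Rragc+/+ range. The log2 difference was -0.06 with a 95% interval from -0.37 to 0.25 (limma, adjusted p = 0.905).

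Atp6v1h encodes subunit H, which links the head to the membrane sector and restrains ATP hydrolysis by V1 sectors that have come off the membrane. It had the lowest normalized count of the 10 and the largest log2 difference. Rragc+/+ libraries held 78.4, 30.4, 57.2, 68.3 and 110.3 normalized counts, and RragcS74N/+ libraries held 105, 83.4, 100.2 and 107. All 4 RragcS74N/+ values were above the Rragc+/+ median, but Rragc+/+ replicate 5 was the highest of the 9. The means were 68.9 ± 29.3 (SD, n = 5) and 98.7 ± 10.6 (SD, n = 4). The log2 difference was 0.62 ± 0.29 (SE; limma, unadjusted p = 0.0506, adjusted p = 0.713). Rragc+/+ replicate 2, with 26 reads, carried much of this difference, which was 0.36 without that library.

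The V0 sector holds the proton path. Atp6v0c and Atp6v0b encode the proteolipids c and c″, which form the membrane ring that carries protons as it turns. Atp6v0c had the highest normalized count of the 10, with 1064, 1302, 1027, 1124 and 821 normalized counts in Rragc+/+ and 817, 883, 926 and 691 in RragcS74N/+. All 4 RragcS74N/+ values lay below the Rragc+/+ median and 2 of them below every Rragc+/+ library, and Rragc+/+ replicate 5 lay among the RragcS74N/+ values. The means were 1068 ± 173 (SD, n = 5) and 829.4 ± 102.8 (SD, n = 4), a log2 difference of -0.36 ± 0.17 (SE; limma, unadjusted p = 0.0533, adjusted p = 0.713). Atp6v0c has near-identical pseudogene copies in the mouse genome, and its count is uncertain where reads could be placed on them. How many reads that concerned was not measured.

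Atp6v0b measured 479, 734, 606, 494 and 403 normalized counts in Rragc+/+ and 305, 408, 478 and 419 in RragcS74N/+. The pattern was like that of Atp6v0c, with all 4 RragcS74N/+ values below the Rragc+/+ median and Rragc+/+ replicate 5 below 3 of them. The means were 543 ± 129 (SD, n = 5) and 403 ± 72.0 (SD, n = 4), and the log2 difference was -0.42 ± 0.20 (SE; limma, unadjusted p = 0.0543, adjusted p = 0.713).

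Atp6v0d1 encodes subunit d1, which seats the central shaft on the ring. It measured 126, 214, 174, 141 and 107 normalized counts in Rragc+/+ and 121, 112, 129.5 and 100.3 in RragcS74N/+. The ranges overlapped, and the spread was wide in Rragc+/+ (152 ± 42.2, SD, n = 5) and narrow in RragcS74N/+ (116 ± 12.6, SD, n = 4). The log2 difference of -0.36 ± 0.21 (SE; limma, adjusted p = 0.713) became -0.23 without Rragc+/+ replicate 2.

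Atp6v0e encodes the small membrane subunit e and did not share the direction of the other V0 subunits. Its values were 969, 611, 649.5, 866 and 1113 normalized counts in Rragc+/+ and 706, 954, 786 and 1345 in RragcS74N/+. The genotypes overlapped over most of their ranges, with RragcS74N/+ replicate 4 the highest library. The log2 difference was 0.16 ± 0.23 (SE; limma, adjusted p = 0.828), and -0.02 without that library.

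The differences are placed beside those of the other pump subunits in the plot of log2 differences and their intervals. Of 15 other subunits and accessory proteins considered, 7 were listed, and the 8 not listed were isoforms such as Atp6v0d2, Atp6v1b1 and Atp6v0a4. All 7 had lower fitted values in RragcS74N/+, with a median log2 difference of -0.37, and 2 had an unadjusted p-value under 0.05. Of all tested genes 46.6% were lower and 5.81% had an unadjusted p-value under 0.05. Among the a subunits, which hold the proton half-channels, Tcirg1 (a3) measured 19.9 ± 4.87 (SD, n = 5) normalized counts in Rragc+/+ libraries, against 12.5 ± 2.06 (SD, n = 4) in those of RragcS74N/+, with a log2 difference of -0.61 (limma, unadjusted p = 0.0316, adjusted p = 0.713). Once a library-wide trend with the GC content of transcript 3′ ends, described further on, was removed, this difference was -0.32. Tcirg1 was measured with only 10 to 31 reads in a library, and its unadjusted p-value was 0.0516 with DESeq2. Atp6v0a1 differed by -0.37, by -0.24 without Rragc+/+ replicate 2 and by -0.14 with the 3′ GC trend removed. Atp6v0a2 differed by -0.07. The accessory subunit gene Atp6ap2 measured 256 ± 10.1 (SD, n = 5) and 194 ± 32.7 (SD, n = 4) normalized counts, and its genotypes did not overlap (log2 difference -0.41; limma, unadjusted p = 0.0201, adjusted p = 0.713). The gap, from 242.5 in RragcS74N/+ to 246.6 in Rragc+/+, was narrow beside the RragcS74N/+ range, which started at 170.4. Complete separation with lower values in RragcS74N/+ was found for 1.02% of all tested genes. Atp6ap1, the partner of Atp6ap2, had the widest spread, from 173 to 667 normalized counts in Rragc+/+ and from 120.2 to 279 in RragcS74N/+. The log2 difference of Atp6ap1, -0.68, became -0.38 without Rragc+/+ replicate 2 and -0.63 with the 3′ GC trend removed. The stalk and assembly subunits Atp6v1g1 and Atp6v1c1 differed by -0.07 and -0.02. Once the 3′ GC trend was removed, Atp6v1g1 moved away from 0, to -0.23, and Atp6v1c1 changed sign, to 0.17.

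**Figure D2:**
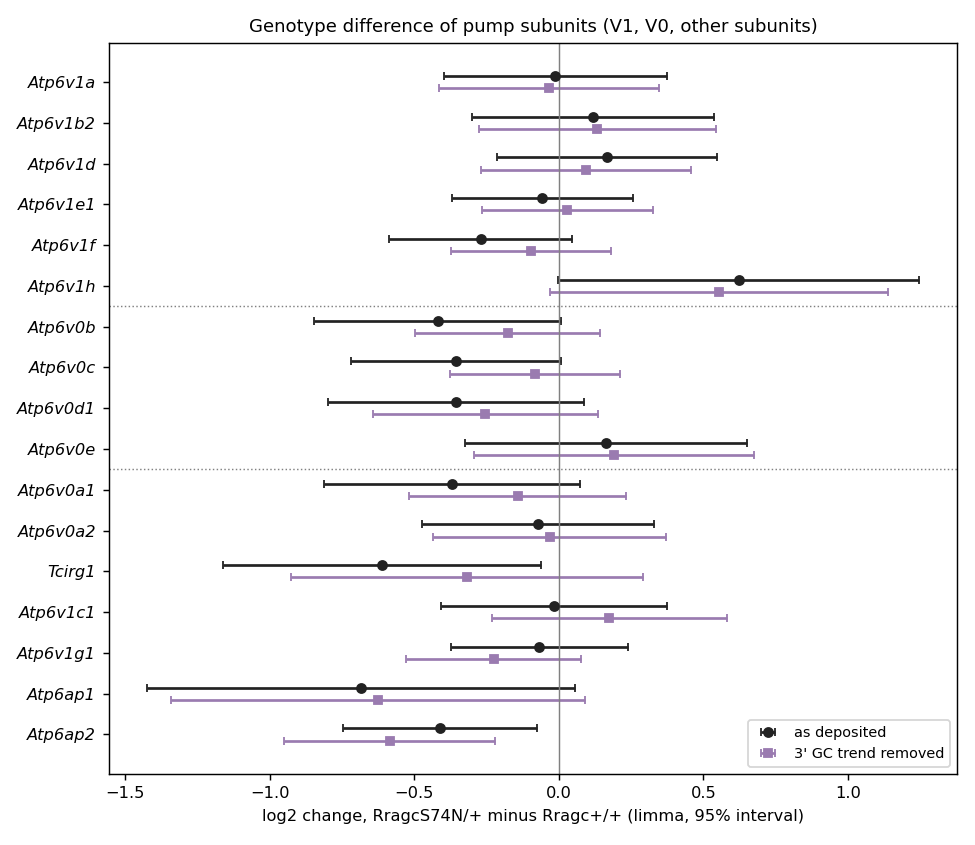
Log2 difference between RragcS74N/+ and Rragc+/+ (horizontal axis, with 95% limma intervals) of the 6 V1 subunits, the 4 V0 subunits and the 7 other listed pump subunits, separated by dotted lines. Black circles are the values as deposited and purple squares the values after the 3′ GC trend of every library was taken out. All 10 intervals of the V1 and V0 subunits reach or cross 0, and the squares of Atp6v0b, Atp6v0c and Atp6v1f lie nearer to 0 than the circles.

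The summed level of the 6 V1 subunits was 2375 ± 167 (SD, n = 5) normalized counts in Rragc+/+ libraries, against 2334 ± 62.8 (SD, n = 4) in those of RragcS74N/+. The sum of the 4 V0 subunits was 2605 ± 169 (SD, n = 5) and 2295 ± 253 (SD, n = 4), and the genotypes overlapped, since 2555 in RragcS74N/+ replicate 4 exceeded the lowest Rragc+/+ library at 2444. The ratio of the V0 sum to the V1 sum was 1.10 ± 0.0777 (SD, n = 5) in Rragc+/+ libraries, against 0.983 ± 0.0931 (SD, n = 4) in RragcS74N/+. The ratios overlapped between genotypes, since RragcS74N/+ replicate 4 at 1.05 exceeded Rragc+/+ replicate 1 at 1.01. The ratio was lowest, at 0.846, in RragcS74N/+ replicate 1 and highest, at 1.22, in Rragc+/+ replicate 2. Those libraries also had the lowest and highest slope of log2 values on 3′ GC content, at -0.22 and 0.33 per 10 percentage points. These sums and ratios are given as a description with no test. In bulk samples, fewer cells of a type and less RNA per cell cannot be told apart.

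The course of the subunits from library to library was compared within genotypes. Deviations from the genotype mean were compared for the 45 pairs of subunits over the 9 libraries, which share the depth and base composition of each library, so these correlations are descriptive. Atp6v0b, Atp6v0c, Atp6v0d1 and Atp6v1f deviated in the same direction, with Pearson's r between 0.63 and 0.87 for their 6 pairs. Atp6v1h ran against them, with r = -0.92 (Spearman's rho = -0.75) beside Atp6v1f and r = -0.90 (rho = -0.90) beside Atp6v0d1. Without Rragc+/+ replicate 2 these pairs had r = -0.69 and -0.79, and once the 3′ GC trend was taken out they had r = -0.13 and -0.84. Atp6v0e ran against Atp6v0d1 (r = -0.88, rho = -0.90). The median r over all 45 pairs was -0.09, so the 10 subunits did not vary as 1 unit. Without Rragc+/+ replicate 2 the 6 pairs had r between 0.35 and 0.94, and once the 3′ GC trend was taken out they had r between -0.67 and 0.37. The pair Atp6v0d1 and Atp6v0e kept its opposite course under both, at r = -0.89 and -0.94.

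The co-varying subunits were those with GC-rich 3′ ends. The GC content of the last 500 bases of the transcripts ran from 43.4% in Atp6v1d and 43.6% in Atp6v1h to 55.1% in Atp6v0b and 56.3% in Atp6v0c. The V0 subunits had a median of 52.8% and the V1 subunits 46.7%, against 45.5% for all genes tested with a value. Across the 10 subunits the genotype difference followed this measure with Pearson's r = -0.86 and Spearman's rho = -0.88, and across 6645 tested genes with r = -0.46. Over the 10 and the 7 other listed pump subunits together, 17 genes, it was weaker than over the 10 alone, at r = -0.35 and rho = -0.52. Genes are not independent replicates, and all points share the same 9 libraries. In Rragc+/+ replicate 2 the subunits' deviations followed 3′ GC content with r = 0.78, with Atp6v0d1 at 0.69 and Atp6v0b at 0.65 above their means on the log2 scale and Atp6v1h at -1.32 below. In RragcS74N/+ replicates 1 and 4 the relation had the opposite sign, with r = -0.66 in each. Over the 17 genes r was 0.34 in Rragc+/+ replicate 2, and -0.19 and -0.30 in RragcS74N/+ replicates 1 and 4.

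**Figure D3:**
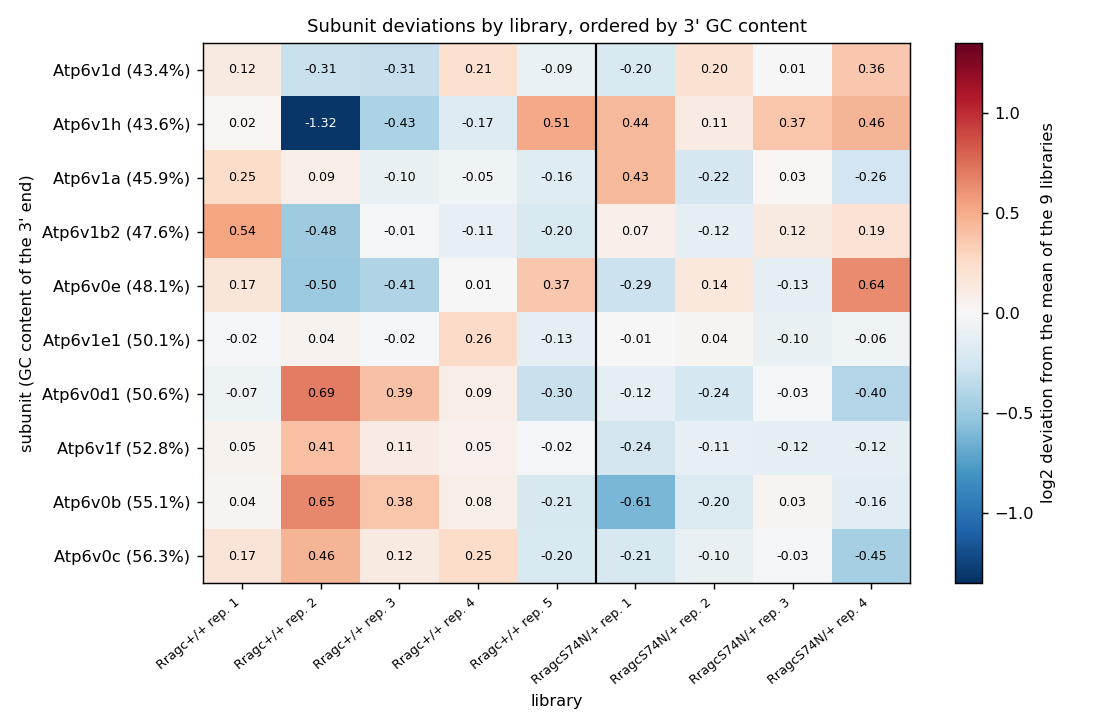
Log2 deviation of each subunit (rows, ordered from the lowest to the highest 3′ GC content, which is given beside the name) from its own mean over the 9 libraries (columns, the line separates Rragc+/+ from RragcS74N/+). Rragc+/+ replicate 2 runs from -1.32 for Atp6v1h among the GC-poor subunits to 0.69 for Atp6v0d1 among the GC-rich ones, and RragcS74N/+ replicate 4 runs the other way, from 0.64 for Atp6v0e to -0.45 for Atp6v0c.

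**Figure D4:**
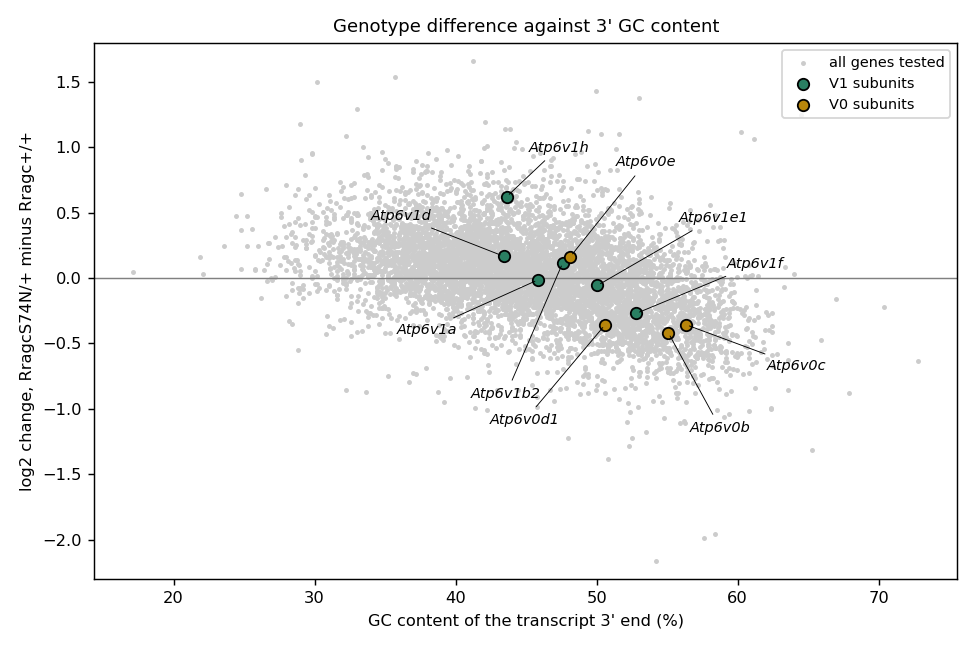
Log2 difference between RragcS74N/+ and Rragc+/+ (vertical axis) against the GC content of the last 500 bases of the transcript (horizontal axis, percent) for all tested genes with a GC value (gray), the V1 subunits (green) and the V0 subunits (gold). The subunits run from 0.62 for Atp6v1h at 43.6% to -0.42 for Atp6v0b at 55.1%, inside the cloud of all genes, which slopes the same way.

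Over all genes, the slope of a library's log2 values on 3′ GC content lay between -0.13 and 0.33 per 10 percentage points of GC in Rragc+/+, with the highest slope in replicate 2. In RragcS74N/+ it lay between -0.22 and -0.00098, so 4 of 5 Rragc+/+ slopes were above every RragcS74N/+ slope. With these trends removed, the log2 difference was -0.18 for Atp6v0b, -0.08 for Atp6v0c, -0.10 for Atp6v1f and -0.25 for Atp6v0d1, each nearer to 0 than before. Atp6v1f then overlapped between genotypes. Atp6v1h moved little, to 0.55, and Atp6ap2, whose 3′ end has 33.0% GC, moved to -0.59. The trend and the genotype moved together, and a part of either in the other cannot be told apart with these libraries. Removing a trend also removes any genotype difference that runs along it.

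Marker genes of other cell types were summed in each library. The monocyte and macrophage markers, of which 4 of 9 were listed (Csf1r, Mpeg1, Cd68 and Adgre1), summed to between 315 and 710 normalized counts in Rragc+/+ and between 271 and 349 in RragcS74N/+, and Ly86, Ccr2, F13a1, Ms4a6c and Irf8 were not listed. Their sum was highest in Rragc+/+ replicates 2 and 3, at 710 and 469.6, which were also the 2 highest libraries for Atp6v0b, Atp6v0d1, Atp6v1f and Atp6ap1. Rragc+/+ replicate 2 was instead the lowest library for Atp6v0e, Atp6v1b2 and Atp6v1h, and Atp6v0c was highest in Rragc+/+ replicates 2 and 4. Rragc+/+ replicates 2 and 3 also had the highest slopes on 3′ GC content, at 0.33 and 0.12 per 10 percentage points. Erythroid markers (7 of 8 listed) summed to between 1091 and 5609 in Rragc+/+ and between 379 and 2158 in RragcS74N/+. The 6 osteoclast markers, among them the osteoclast pump subunit Atp6v0d2, were not listed. Markers of eosinophils and basophils (5 of 9 listed) summed to between 123 and 429 in Rragc+/+ and between 122 and 593 in RragcS74N/+, those of B cells (2 of 8) to no more than 146, and the 1 listed of 7 T and NK cell markers to no more than 28.9 in any library. Summed neutrophil markers, all 9 listed, lay between 118888 and 177541 in Rragc+/+ and between 115256 and 198526 in RragcS74N/+. Listed early neutrophil markers (4 of 8) overlapped between genotypes, at 18838 to 27333 and 15953 to 28139, as did the 8 cell cycle markers, at 346 to 752 and 385 to 642. The part of any of these in the subunit values was not tested.

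The genes around the pump were summarized by list. Among all tested genes 46.6% were lower and 5.81% had an unadjusted p-value under 0.05. Of 18 assembly factors and regulators of the pump, 8 were tested, and 3 were lower and 5 higher in RragcS74N/+, with 0 at an unadjusted p-value under 0.05 and a median log2 difference of 0.16. Those with the smallest p-values were Dmxl2, a Rabconnectin that promotes reassembly of V1 with V0 (log2 difference 0.39), and Ccdc115, an assembly factor (0.59). Dmxl2 was at 282 normalized counts in RragcS74N/+ replicate 1, and its difference was 0.09 without that library. That of Ccdc115 was 0.89 without Rragc+/+ replicate 1 and 0.36 with edgeR. Among 10 tested lysosomal ion transport genes 4 were lower and 6 higher, with a median of 0.06, and the proton channel gene Tmem175 and the endolysosomal cation channel gene Tpcn2 differed by -0.61 and -0.57. Without Rragc+/+ replicate 2 these differences were -0.38 and -0.34. Among 8 tested Rag and Ragulator genes, whose products meet the pump on the lysosome, 4 were lower and 4 higher. Lamtor1 differed by -0.30, or -0.16 with the 3′ GC trend removed, and Lamtor3 by 0.37, or 0.19 without Rragc+/+ replicate 2. Of 9 tested genes of mTORC1 and TFEB, 5 were lower, with Tfeb at -0.57 (limma, unadjusted p = 0.0505, adjusted p = 0.713) and its relative Tfe3 at -0.50. Tfeb has a 3′ end of 61.7% GC, and its difference was -0.15 with the 3′ GC trend removed. That of Tfe3 was -0.28 without Rragc+/+ replicate 2.

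Lysosomal hydrolases and membrane proteins share TFEB with the pump as a regulator. Of 26 tested, 18 were lower and 8 higher, with a median log2 difference of -0.18, and 4 were lower at an unadjusted p-value under 0.05. Of all 6673 genes tested 46.6% were lower, and 254 were lower at an unadjusted p-value under 0.05. The protease gene Ctsd measured 1469 ± 395 (SD, n = 5) normalized counts in Rragc+/+ libraries, against 953 ± 110.5 (SD, n = 4) in those of RragcS74N/+, a log2 difference of -0.59 (limma, unadjusted p = 0.0098, adjusted p = 0.713). Its 3′ end has 56.5% GC, and the difference was -0.31 with the 3′ GC trend removed. The cholesterol transfer protein gene Npc2 differed by -0.65 (limma, unadjusted p = 0.0175, adjusted p = 0.713). After the 3′ GC trend was removed, the median of these 26 was -0.15 and that of the 10 subunits -0.003. The 7 other listed pump subunits then had a median of -0.23, with 6 of them lower. Differences between the lists were not tested.

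By promoter, the 4 subunits with an E-box in the window had log2 differences of -0.42 (Atp6v0b), -0.36 (Atp6v0d1), 0.16 (Atp6v0e) and -0.01 (Atp6v1a). The 4 without it had -0.36 (Atp6v0c), -0.27 (Atp6v1f), 0.17 (Atp6v1d) and -0.06 (Atp6v1e1). Both groups thus held lower values, a value near 0 and a higher one.

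The genes whose library-to-library course was most like the mean of the 10 subunits, among the 3465 other genes whose mean reached 50, were Tuba1a, Cpsf3, Taf12, Ngrn and Csnk2a2. Their Pearson's r with the subunits' mean deviation lay between 0.94 and 0.97 over 9 libraries, given as a description. The mean deviation itself was small, from -0.06 in Rragc+/+ replicate 5 to 0.11 in Rragc+/+ replicate 1, since opposite deviations of the subunits cancel in a mean.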

How the data were processed

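Neutrophil RNA of 9 libraries was sequenced from transcript 3′ ends with kits that add molecular identifiers. Alignment by the authors used TopHat2 (version 2.0.10) on GRCm39, and reads were counted per gene and strand with HTSeq (version 0.6.1). The deposited values are a signal, namely gene read counts that the authors divided by 1 size factor per library. Collapsing by identifier and the filter behind the listed genes are not given in the sources used here. All values were whole multiples (tolerance 0.01) of the value of 1 read, which gave the recovered reads. Intervals from reads would cover counting error only.

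A mean of 10 was required of each gene tested. Tests were made on log2(value + 1), a scale that understates the change of low genes, with limma (version 3.58.1, R 4.3.3; trended moderation, genotype as the term, Benjamini-Hochberg over all genes, threshold 0.05). The recovered reads were also tested with edgeR (version 4.0.16) and with DESeq2 (version 1.42.0). The code was tested on simulated data. The subunits, lists and tests were chosen with earlier results of these data known. Named genes were all subunits, the other listed subunits, the 2 genes with the smallest p-value of each further list, Rragc, the sorting markers and the 5 genes closest in course. 3′ GC content (the last 500 bases) and transcript length came from GENCODE transcripts of GRCm38, not the authors' assembly, and matched 7164 of 7197 genes. Each library's trend on GC was removed by a lowess curve (span 0.3). Promoters came from RefSeq.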

Additional observations from a re-analysis of the deposited data

Results flagged for a closer look

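A library was marked where its gap to the nearest other library of its genotype, divided by the genotype's range, exceeded Dixon's 95% critical value. Chance marks about 1 in 20 groups, and 6 of 80 groups were marked, against 4 by that rate. Atp6v1f was marked in both genotypes, for its high value in Rragc+/+ replicate 2 (gap ratio 0.742) and its low value in RragcS74N/+ replicate 1 (0.926). The sum of the V1 subunits was high in RragcS74N/+ replicate 4 (0.908), at 2428 normalized counts against 2296 to 2308 in the other RragcS74N/+ libraries. RragcS74N/+ replicate 1 was also apart in 3 further genes, being high for Dmxl2 (0.861) and low for Tmem175 (0.871) and Taf12 (0.887). The cause was not tested.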

How the results depend on the processing

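No paired analysis was possible because no label pairs Rragc+/+ libraries with RragcS74N/+ libraries. The labels carry no replicate number, so the replicate numbers used here only name the libraries. Over 21 alternatives, 20 of them planned and 1 added after the data were seen (3′ GC trend removed and Rragc+/+ replicate 2 left out together), 0 subunits passed the adjusted threshold, the count of lower subunits was 5 or 6, and the median log2 difference of the 10 was between -0.112 (without RragcS74N/+ replicate 1) and -0.002. Leaving out 1 library at a time gave medians from -0.112 to -0.0102. The number of subunits with an unadjusted p-value under 0.05, 0 as reported, was 4 with array quality weights, 3 with DESeq2, 2 with edgeR, 2 with TMM scaling, 1 with a pseudocount of 5, 1 with no filter, and 0 to 4 with a library left out. The share of all genes at that threshold was then 11.5%, 6.70%, 6.89%, 5.92%, 5.86% and 5.70%, and 3.02% to 13.7% with a library left out. The number that did not overlap, 1 as reported, was 0 when columns were brought to the same total, 0 with the 3′ GC trend removed and 0 with the added alternative, and 1 to 4 with a library left out. Of all genes tested, 1.69% did not overlap as reported, and 1.94% to 6.32% with a library left out. The cause was not tested.

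Of 750 values of named genes over the alternatives, 724 kept their direction and 26 changed sign. The adjusted threshold was passed by 0 genes in every alternative, so the side of that threshold could not change. The side of an unadjusted p-value of 0.05 did change for some genes. Atp6v0b was under it in 6 alternatives and Atp6v1h in 5, and neither was as reported. Atp6v1a changed sign with edgeR (0.0023) and DESeq2 (0.014). With the 3′ GC trend removed, Atp6v1e1 became 0.028, Atp6v1c1 0.175 and Cpsf3 0.11, and with the added alternative Atp6v1e1 became 0.0053, Atp6v1c1 0.11 and Ngrn -0.015. With a library left out, the log2 difference ran from -0.16 to 0.072 for Atp6v1a, from -0.020 to 0.29 for Atp6v0e, from -0.095 to 0.00068 for Atp6v1e1, from -0.16 to 0.014 for Atp6v0a2, from -0.090 to 0.057 for Atp6v1c1, from -0.082 to 0.11 for Cpsf3, from -0.0035 to 0.22 for Ngrn, from -0.15 to 0.18 for Ly6g and from -0.15 to 0.0011 for Rragc.

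Counting error was small beside the spread for most subunits in Rragc+/+, where it allowed a coefficient of variation of 2.95% for Atp6v0c, observed at 16.2%, and of 12.97% for Atp6v1h, observed at 42.5%. In RragcS74N/+ it was close to the spread for some subunits. It was 9.47% against 10.7% for Atp6v1h, 8.77% against 10.9% for Atp6v0d1, 3.74% against 4.22% for Atp6v1f and 4.55% against 4.24% for Atp6v1e1. The number of libraries, 5 and 4, limits the precision of each difference to its own interval.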
